A study of Mus musculus with 4 samples.

Results

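The D cyclins, the kinases they activate and the inhibitors that restrain them were described by 10 genes, chosen by name: Ccnd1, Ccnd2, Ccnd3, Ccne1, Cdk4, Cdk6, Cdkn1b, Cdkn2a, Cdkn2b and Cdkn2c. Earlier results of these data were known when they were chosen. Each matched exactly 1 of the 54446 genes in the deposited table. All 10 were among the 17787 genes with a level above 0 in all 4 libraries. RNA came from mammary cells of wild type C57BL/6 mice that had been sorted as basal or luminal by CD29 and CD24. The cells were grown in 3D in Matrigel with insulin-transferrin-selenium and EGF. They were treated with DMSO, the control, or with 100 μM baicalin, a plant flavonoid. The study's methods name a salt solution as the solvent of baicalin, and do not say that it was dissolved in DMSO for culture. The 4 conditions, namely basal DMSO, basal baicalin, luminal DMSO and luminal baicalin, had 1 library each, so differences between conditions carry no replicate error. All 4 shared the strain, the genotype, the culture medium and the gel, and the number of mice behind a library is not given in the sources used here. Per the study's methods, primary cells came from glands of virgin mice aged 6 to 9 weeks or of other females at named stages.

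Progression through G1 depends on cyclins D1, D2 and D3, which bind CDK4 or CDK6 and start the phosphorylation of the retinoblastoma protein. Cyclin E1 with CDK2 continues that phosphorylation, E2F factors are released, and genes for DNA synthesis are transcribed. INK4 proteins, among them p16, p15 and p18, bind CDK4 and CDK6 and block D cyclins, while p27, a CIP/KIP protein, inhibits CDK2 complexes and also associates with D cyclin complexes. In the mammary gland cyclin D1 is known for its requirement in alveolar growth during pregnancy, and p16 is known as a marker of arrested epithelial cells.

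Levels are FPKM, fragments per kilobase of exon scaled by the authors to library depth, as deposited. Multiplied by exon length, the FPKM of all 40 member values fell on whole fragments, and between 19356103 and 20648787 fragments lay behind each library. Ratios between libraries are therefore given with exact Clopper-Pearson 95% intervals, and ratios of ratios or of levels within a library with approximate ones. These intervals cover counting error only, and neither the spread between cultures nor the choice of scaling between libraries. A change is the log2 ratio of FPKM with 1 added to each value, a scale on which genes at low levels change less than their ratio, and a gene was counted as past the threshold when its change exceeded 1 in size.

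The libraries stood against their labels for most lineage markers. Of 10 basal or myoepithelial markers, 10 were higher in the libraries labelled luminal than in those labelled basal in both treatments, with summed levels of 5404 against 1761 FPKM in DMSO and 7199 against 479 FPKM in baicalin. Of 13 luminal markers, 10 in DMSO and 12 in baicalin were lower in the libraries labelled luminal. The 3 that were higher in luminal DMSO were Foxa1 (9.30 against 1.80 FPKM), Pgr (4.81 against 1.08 FPKM) and Esr1 (1.44 against 0.992 FPKM). In baicalin Pgr was the 1 that was higher (2.09 against 0.91 FPKM). Markers of other cells were low, with fibroblast sums between 2.60 and 10.4 FPKM, endothelial sums between 0.848 and 3.19 FPKM, and immune sums between 4.99 and 51.9 FPKM that came mostly from Cd68, with Ptprc at 0.0138 FPKM or less. The summed level of 6 dividing-cell markers was 169 FPKM in basal DMSO and 19.9 FPKM in basal baicalin, against 181 and 86.5 FPKM in luminal DMSO and luminal baicalin, and all 6 were lower with baicalin under both labels. For this reason the libraries are named by their labels throughout, and no lineage is read from them.

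Promoter sequence was shown for the INK4 locus on chromosome 4, where Cdkn2a and Cdkn2b lie side by side, and for Ccne1. They were chosen because Ccne1 and Cdkn2a had the lowest ratios of baicalin to DMSO in the libraries labelled basal. RefSeq windows on GRCm38.p6 matched 8 of the 10 members with 11 windows, and Ccnd1 and Ccnd2 had none. The 250 bases before each RefSeq start were searched on both strands for 6 motifs, namely E2F (TTTCCCGC or TTTGGCGC), SP1 (GGGCGG), CRE (TGACGTCA), E-box (CACGTG), AP-1 (TGANTCA) and the antioxidant response element (TGACNNNGC). Capitals mark the matches, and bases next to the start that GENCODE places in an exon were left out of the printed sequence. Each line reads 5′ to 3′ along the gene, and all 4 windows are on the minus strand.
Cdkn2a, upstream start, chr4:89294654-89294869: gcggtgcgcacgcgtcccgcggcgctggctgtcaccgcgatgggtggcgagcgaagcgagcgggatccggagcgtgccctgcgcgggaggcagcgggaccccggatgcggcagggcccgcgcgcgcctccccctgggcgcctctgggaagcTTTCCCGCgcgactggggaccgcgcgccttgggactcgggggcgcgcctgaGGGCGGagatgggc
Cdkn2a, downstream start, chr4:89282193-89282442: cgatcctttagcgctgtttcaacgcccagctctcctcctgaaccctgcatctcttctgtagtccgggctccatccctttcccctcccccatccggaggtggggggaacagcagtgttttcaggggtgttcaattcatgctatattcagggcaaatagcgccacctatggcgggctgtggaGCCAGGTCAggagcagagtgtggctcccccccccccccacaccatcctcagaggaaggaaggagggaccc
Cdkn2b, chr4:89311040-89311282: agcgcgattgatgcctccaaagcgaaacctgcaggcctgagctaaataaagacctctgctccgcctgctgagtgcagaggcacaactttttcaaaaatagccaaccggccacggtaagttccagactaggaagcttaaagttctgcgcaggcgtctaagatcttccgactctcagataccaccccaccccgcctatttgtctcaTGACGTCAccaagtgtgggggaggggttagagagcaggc
Ccne1, chr7:38107535-38107740: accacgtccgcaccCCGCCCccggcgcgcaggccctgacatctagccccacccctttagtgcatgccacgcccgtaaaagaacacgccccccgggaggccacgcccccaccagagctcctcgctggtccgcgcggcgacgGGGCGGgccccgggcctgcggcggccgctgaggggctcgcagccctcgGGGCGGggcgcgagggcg

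The upstream Cdkn2a window held the only E2F match among the 11 windows, at 99 to 92 bases before the start, a motif found in 1.30% of 32851 RefSeq windows. It also held 2 matches to GGGCGG, 1 of them outside the printed stretch, and that motif was found in 32.7% of windows. The downstream Cdkn2a window, inside the gene, held 1 match to TGACNNNGC, found in 10.2% of windows. The Cdkn2b window held TGACGTCA at 46 to 39 bases before the start, a motif found in 1.55% of windows. In Ccne1, 4 matches to GGGCGG or its complement were found, 3 of them in the printed stretch. Among the windows not printed, that of Cdk4 held 4 matches to CACGTG, found in 6.02% of windows, and none of the 11 held TGANTCA, found in 6.75%. These matches describe letters in the windows and say nothing of binding in these cells.

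Ccnd1 and Cdk4 were the most abundant members in every library, and Ccnd2 covered the widest range, from the lowest member in basal DMSO to the third highest in luminal baicalin. Across the 4 libraries the highest Ccnd2 level was 63.8 times the lowest, against 3.69 times for Ccne1, 3.07 times for Cdkn2c, 3.02 times for Cdkn2a and 1.25 times for Cdk4. Fewer cells expressing a gene and less RNA per cell cannot be told apart in these bulk libraries.

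**Figure D1:**
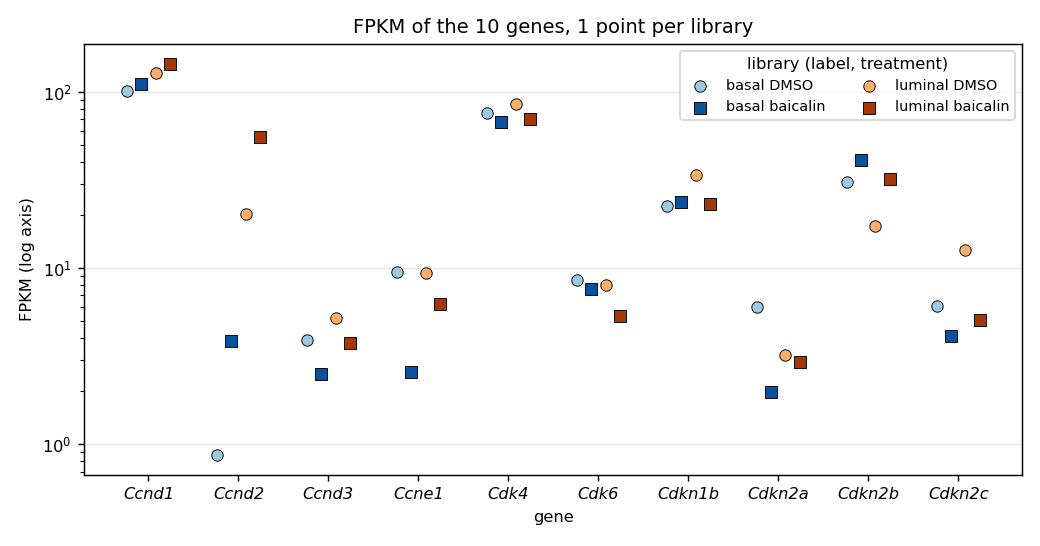
FPKM of each gene on a log axis, 1 point per library, with circles for DMSO, squares for baicalin, blue for the label basal and orange to brown for the label luminal. Ccnd2 spans from 0.867 to 55.3 FPKM, while the 4 points of Ccnd1 and of Cdk4 lie close together near the top.

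Among the D cyclins, Ccnd1 (ENSMUSG00000070348, GRCm38 chromosome 7, 144929931 to 144939925) encodes cyclin D1. Its level was 100.1 FPKM in basal DMSO, 110.2 FPKM in basal baicalin, 127.9 FPKM in luminal DMSO and 144.0 FPKM in luminal baicalin. Both libraries labelled luminal were above both labelled basal, and every neighbouring pair in that order differed beyond counting error. The ratio of baicalin to DMSO was 1.10 (95% interval 1.07 to 1.13) under the label basal and 1.13 (1.10 to 1.15) under the label luminal, far from the threshold in both.

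Ccnd2 (ENSMUSG00000000184, chromosome 6, 127125162 to 127152193), the gene of cyclin D2, was at 0.867 FPKM in basal DMSO, 3.85 FPKM in basal baicalin, 20.2 FPKM in luminal DMSO and 55.3 FPKM in luminal baicalin. These values rest on 162, 735, 3674 and 10743 fragments. It was higher with baicalin under both labels, and both libraries labelled luminal were above both labelled basal. With baicalin it was 4.44-fold higher (3.74 to 5.30) under the label basal and 2.74-fold higher (2.64 to 2.85) under the label luminal. The basal ratio was 1.62 times the luminal one (1.36 to 1.93), although the changes, 1.38 and 1.41, were nearly equal once 1 FPKM had been added to the low basal values.

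Cyclin D3 is encoded by Ccnd3 (ENSMUSG00000034165, chromosome 17, 47505051 to 47599691). Its level was 3.90 FPKM in basal DMSO, 2.51 FPKM in basal baicalin, 5.23 FPKM in luminal DMSO and 3.78 FPKM in luminal baicalin. It was the D cyclin that was lower with baicalin under both labels, with ratios of 0.643 (0.569 to 0.726) for basal and 0.722 (0.653 to 0.799) for luminal. The levels in basal DMSO and luminal baicalin, next to each other in the order, did not differ beyond counting error.

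Summed over the 3 D cyclins, the level was 104.9 FPKM in basal DMSO, 116.5 FPKM in basal baicalin, 153.3 FPKM in luminal DMSO and 203.1 FPKM in luminal baicalin. Ccnd1 made up 95.5% and 94.5% of that sum in the libraries labelled basal, against 83.4% in luminal DMSO and 70.9% in luminal baicalin. The share of Ccnd2 went the other way, at 0.827% in basal DMSO, 3.30% in basal baicalin, 13.2% in luminal DMSO and 27.2% in luminal baicalin. Ccnd3 stayed between 1.86% and 3.72% of the sum. In the libraries labelled luminal, the D cyclin sum was 49.8 FPKM higher with baicalin, and in those labelled basal 11.6 FPKM higher.

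**Figure D2:**
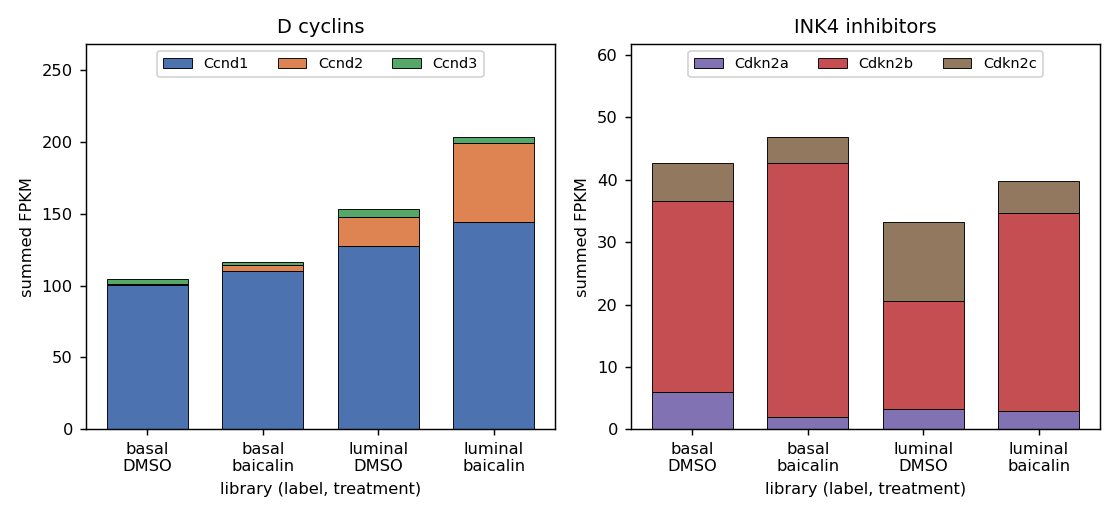
Stacked FPKM of the 3 D cyclins (left) and the 3 INK4 inhibitors (right) in each library, 1 bar per library. The Ccnd2 segment is hard to see in basal DMSO and reaches 27.2% of the D cyclin bar in luminal baicalin, and Cdkn2b is the largest INK4 segment in all 4 bars.

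Cyclin E1, the partner of CDK2 at the end of G1, is encoded by Ccne1 (ENSMUSG00000002068, chromosome 7, 38097984 to 38107534). Ccne1 was at 9.42 FPKM in basal DMSO, 2.56 FPKM in basal baicalin, 9.35 FPKM in luminal DMSO and 6.28 FPKM in luminal baicalin. Both DMSO libraries were alike within counting error, and both baicalin libraries were below them. The ratio of baicalin to DMSO was 0.271 (0.223 to 0.328) under the label basal and 0.671 (0.583 to 0.772) under the label luminal, and the luminal ratio was 2.47 times the basal one (1.958 to 3.13). The dividing-cell markers given above were lower in the same libraries, and their part in the Ccne1 difference was not tested.

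Of the catalytic partners of the D cyclins, Cdk4 had the narrowest range of all members over the 4 libraries, and Cdk6 was less abundant. Cdk4 (ENSMUSG00000006728, chromosome 10, 127063534 to 127067920) was at 75.5 FPKM in basal DMSO, 67.4 FPKM in basal baicalin, 84.4 FPKM in luminal DMSO and 70.2 FPKM in luminal baicalin. Cdk6 (ENSMUSG00000040274, chromosome 5, 3341485 to 3531008) was at 8.53, 7.61, 7.999 and 5.32 FPKM in the same order. Both kinases were lower with baicalin under both labels, with Cdk4 ratios of 0.893 (0.857 to 0.930) and 0.832 (0.800 to 0.865) and Cdk6 ratios of 0.892 (0.842 to 0.946) and 0.665 (0.623 to 0.710) for basal and luminal. Neither passed the threshold in any comparison. Cdk4 was 8.85 times Cdk6 in basal DMSO, 8.86 times in basal baicalin, 10.6 times in luminal DMSO and 13.2 times in luminal baicalin. The levels of Cdk4 in the baicalin libraries, and of Cdk6 in luminal DMSO and basal baicalin, did not differ beyond counting error.

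Cdkn1b (ENSMUSG00000003031, chromosome 6, 134920401 to 134925513) encodes p27. It was at 22.5 FPKM in basal DMSO, 23.7 FPKM in basal baicalin, 33.7 FPKM in luminal DMSO and 23.0 FPKM in luminal baicalin. Only luminal DMSO stood apart, and among the other libraries no neighbouring pair in the order differed beyond counting error. The ratio of baicalin to DMSO was 1.06 (0.994 to 1.12) under the label basal and 0.681 (0.644 to 0.720) under the label luminal. The D cyclin sum was 4.67, 4.92 and 4.54 times the Cdkn1b level in basal DMSO, basal baicalin and luminal DMSO, and 8.84 times in luminal baicalin, where Ccnd2 was highest.

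Of the INK4 genes, Cdkn2b (ENSMUSG00000073802, chromosome 4, 89306299 to 89311039), which encodes p15, was the most abundant in every library. Its level was 30.7 FPKM in basal DMSO, 40.7 FPKM in basal baicalin, 17.4 FPKM in luminal DMSO and 31.8 FPKM in luminal baicalin. It was higher with baicalin under both labels, by a ratio of 1.33 (1.21 to 1.45) for basal and 1.83 (1.64 to 2.05) for luminal, and neither change passed the threshold. Luminal baicalin and basal DMSO did not differ beyond counting error.

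The neighbouring gene Cdkn2a (ENSMUSG00000044303, chromosome 4, 89274471 to 89294653) yields both p16 and p19ARF from separate first exons, whose starts are the downstream and the upstream window printed above, and its gene-level value holds both. Cdkn2a was at 5.97 FPKM in basal DMSO, 1.98 FPKM in basal baicalin, 3.22 FPKM in luminal DMSO and 2.93 FPKM in luminal baicalin. These levels rest on 139, 47, 73 and 71 fragments, the fewest of any member in each library. Under the label basal the ratio of baicalin to DMSO was 0.331 (0.233 to 0.464), and under the label luminal it was 0.912 (0.648 to 1.28), which is within counting error. Thus in the libraries labelled basal the adjacent genes lay on opposite sides of 1, and Cdkn2b was 20.6 times Cdkn2a with baicalin (15.4 to 27.6) against 5.14 times with DMSO (4.29 to 6.15). In the libraries labelled luminal the same ratio of levels was 10.8 with baicalin (8.52 to 13.8) and 5.39 with DMSO (4.21 to 6.90).

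Cdkn2c (ENSMUSG00000028551, chromosome 4, 109660876 to 109667189), the gene of p18, was at 6.08 FPKM in basal DMSO, 4.11 FPKM in basal baicalin, 12.6 FPKM in luminal DMSO and 5.07 FPKM in luminal baicalin. Luminal DMSO was highest, and each neighbouring pair in the order differed beyond counting error. The ratio of baicalin to DMSO was 0.677 (0.568 to 0.805) for basal and 0.401 (0.347 to 0.462) for luminal. Cdkn2b was 1.37 times Cdkn2c in luminal DMSO (1.22 to 1.55) and 6.28 times in luminal baicalin (5.49 to 7.18).

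The 3 INK4 genes summed to 42.7 FPKM in basal DMSO, 46.8 FPKM in basal baicalin, 33.2 FPKM in luminal DMSO and 39.8 FPKM in luminal baicalin. With baicalin it was 1.10 times (1.01 to 1.18) the DMSO sum for basal and 1.199 times (1.10 to 1.30) for luminal. With Cdkn2d, the fourth INK4 gene, added to the sum, these ratios were 1.02 (0.947 to 1.09) and 1.06 (0.990 to 1.14), both within counting error of 1. Cdkn2b was higher and Cdkn2c lower with baicalin under both labels, and Cdkn2a was lower for basal and within counting error for luminal. Cdkn2b made up 71.8% and 87.0% of it in basal DMSO and basal baicalin, and 52.3% and 79.9% in luminal DMSO and luminal baicalin. Relative to the summed level of Cdk4 and Cdk6, the INK4 sum was 0.509 in basal DMSO and 0.624 in basal baicalin, and 0.359 in luminal DMSO and 0.527 in luminal baicalin. The D cyclin sum relative to the same kinases was 1.25 and 1.55 in basal DMSO and basal baicalin, and 1.66 and 2.69 in luminal DMSO and luminal baicalin. Both RNA ratios were higher with baicalin under both labels, also with Cdkn2d in the INK4 sum, and they describe RNA levels, not protein complexes.

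Counted over the 10 genes, baicalin against DMSO under the label basal gave 4 higher and 6 lower members. Of the 17787 genes, 9057 were higher and 8728 lower. The change of 1 member, Ccnd2, exceeded 1 upwards, where 2.15% of the 17787 genes did. It was exceeded downwards by 2 members, Ccne1 with a change of -1.55 and Cdkn2a with -1.23, where 3.33% of all genes did. The median change of the members was -0.15, against 0.01 over all genes. Of the 10 ratios, 9 differed from 1 beyond counting error, Cdkn1b being the exception. At this depth so did 54.4% of the 17781 genes with recovered fragments, and 71.1% of the 11056 genes with at least 47 fragments in every library, the lowest count of a member.

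Under the label luminal, 3 members were higher and 7 lower with baicalin, against 8115 higher and 9670 lower of all genes. Ccnd2 was the 1 member past the threshold upwards, where 2.37% of all genes were, and Cdkn2c, with a change of -1.17, was the 1 member past it downwards, where 1.59% of all genes were. Their median change was -0.32, against -0.02 over all genes. Cdkn2a was the 1 ratio within counting error of 1, where 51.6% of genes with fragments and 66.8% of those with at least 47 lay beyond it. With 10 members, a count of 1 is 10% of the list, so these counts are a description of few genes.

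**Figure D3:**
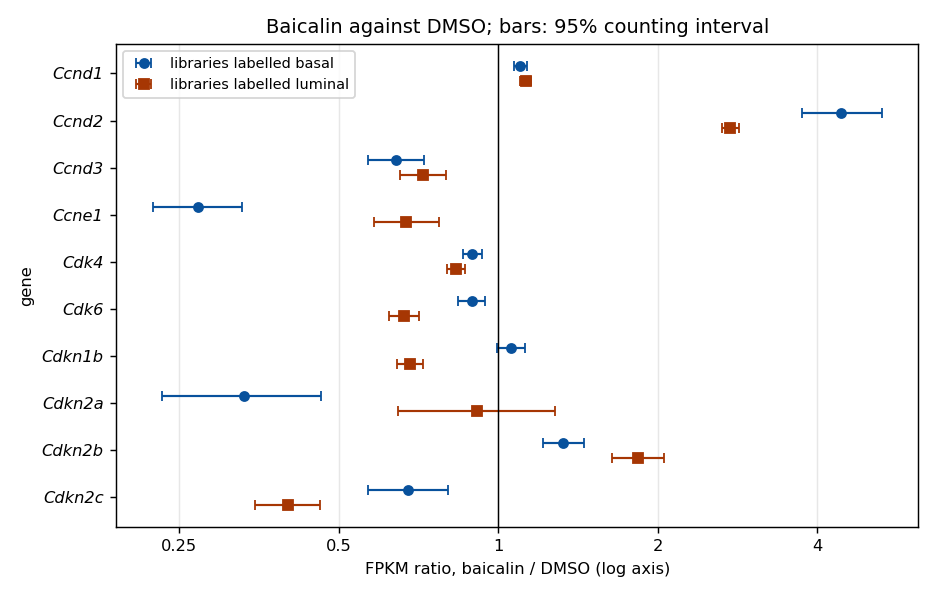
FPKM ratio of baicalin to DMSO for each gene on a log axis, with circles for the libraries labelled basal, squares for those labelled luminal, and bars for the 95% counting interval. Ccnd2 lies furthest to the right under both labels, Ccne1 (0.271) and Cdkn2a (0.331) furthest to the left under the label basal, and Cdkn2c (0.401) furthest to the left under the label luminal.

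Both comparisons can be set side by side per member, since they share no library. Ccnd1, Ccnd2 and Cdkn2b were higher with baicalin under both labels, 6 members were lower under both, and Cdkn1b had opposite signs. The ratio of the luminal ratio to the basal ratio differed from 1 beyond counting error for 8 of the 10 members, Ccnd1 and Ccnd3 being the others. It did so for 48% of genes with fragments and 62.9% of those with at least 47. On the scale of changes, the difference exceeded 1 for 2 members, Ccne1 (1.04) and Cdkn2a (1.13), where 7.06% of all genes exceeded 1 in size. For both, the basal ratio was the lower one. Cdkn2c and Cdk6 differed the other way, with luminal ratios 0.592 times (0.475 to 0.738) and 0.745 times (0.683 to 0.814) the basal ones. None of these differences was tested against replicate error, since there is none to use.

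Between the labels, the DMSO libraries gave 6 members higher and 4 lower in luminal than in basal. Of all genes, 9340 were higher and 8447 lower. Ccnd2, 23.3-fold higher (19.9 to 27.4), was the 1 member past the threshold upwards, where 4.71% of all genes were. No member was past it downwards, where 3.86% of all genes were. Cdkn2c was 2.08-fold higher (1.82 to 2.38) in luminal DMSO with a change of 0.95, just inside the threshold, and Cdkn1b was 1.502-fold higher (1.42 to 1.59). Cdkn2a and Cdkn2b were lower in luminal DMSO, at 0.539 times (0.400 to 0.720) and 0.566 times (0.504 to 0.634) the basal level.

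In the baicalin libraries 7 members were higher and 3 lower in luminal than in basal, against 8046 higher and 9741 lower of all genes. Ccnd2, 14.4-fold higher (13.3 to 15.5), and Ccne1, 2.46-fold higher (2.01 to 3.01) with a change of 1.03, were the 2 members past the threshold upwards, where 5.24% of all genes were. Downwards no member was past it, where 2.99% of all genes were. Cdk6 was lowest relative to basal, at 0.699 times (0.654 to 0.747). Cdk4 and Cdkn1b did not differ beyond counting error between these libraries. As the basal markers were higher in the libraries labelled luminal in the same comparisons, their part in the Ccnd2 difference was not tested.

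**Figure D4:**
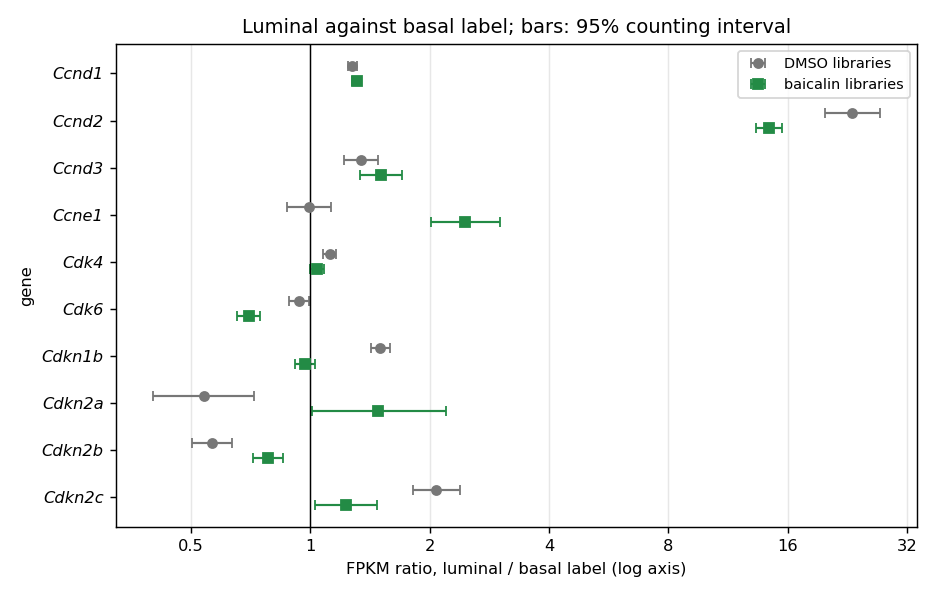
FPKM ratio of the libraries labelled luminal to those labelled basal for each gene on a log axis, with circles for DMSO, squares for baicalin, and bars for the 95% counting interval. Ccnd2, at 23.3 in DMSO and 14.4 in baicalin, lies far to the right of the other 9 genes, whose ratios run from 0.539 to 2.46.

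The rest of the pathway was followed in 8 lists with 76 genes, all found and all above 0 in the 4 libraries. The lists, too, were chosen with earlier results of these data known. The list counts past the threshold are to be read beside the shares of all genes. These were 2.15% upwards and 3.33% downwards under the label basal, and 2.37% upwards and 1.59% downwards under the label luminal. Of the 3 other CDK inhibitors, Cdkn1a, the gene of p21 and a target of p53, was at 29.0 FPKM in basal DMSO and 106.2 FPKM in basal baicalin, and at 24.7 FPKM in luminal DMSO and 72.7 FPKM in luminal baicalin. It was 3.66-fold (3.48 to 3.84) and 2.94-fold (2.78 to 3.11) higher with baicalin, and was the most abundant CDK inhibitor in both baicalin libraries. Cdkn1c, the gene of p57, was at 0.148 and 3.12 FPKM in basal DMSO and basal baicalin, and at 0.203 and 0.237 FPKM in luminal DMSO and luminal baicalin. Its basal ratio of 21.04 had a wide counting interval (9.41 to 58.4). Cdkn2d was lower with baicalin under both labels, at 0.535 times (0.423 to 0.674) and 0.702 times (0.600 to 0.822) the DMSO level. Thus 2 of 3 were past the threshold upwards under the label basal and 1 of 3 under the label luminal.

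Among 7 other G1 cyclins, kinases and activators, 2 were past the threshold downwards under the label basal, and the median change was -0.51. Ccne2, the gene of cyclin E2, went from 3.78 to 0.451 FPKM, and Ccna2, the gene of the S phase cyclin A2, from 26.5 to 2.15 FPKM. Under the label luminal all 7 were lower, with a median of -0.48, and 1 was past the threshold, Ccna2, which was at 29.8 FPKM with DMSO and 12.5 FPKM with baicalin. Cdk2, the kinase bound by cyclin E, was at 0.666 times (0.602 to 0.737) and 0.662 times (0.602 to 0.728) its DMSO level under the labels basal and luminal.

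The pocket proteins and E2F factors, which act directly downstream of CDK4 and CDK6, had medians of -0.49 for basal and -0.40 for luminal. Under the label basal 4 of 13 were past the threshold, all lower: Rbl1 (p107), E2f2, and the repressor genes E2f7 and E2f8, with ratios of 0.386, 0.375, 0.105 and 0.126. Under the label luminal none of the 13 was past it, and 11 were lower. Rb1, the gene of the retinoblastoma protein, was at 1.29 times (1.18 to 1.40) its DMSO level for basal and 0.723 times (0.661 to 0.792) for luminal.

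Genes that E2F factors are known to drive at S phase entry were lower throughout. All 20 were lower with baicalin under both labels, with a median change of -1.57 for basal and -0.77 for luminal, against 0.01 and -0.02 over all genes. Under the label basal 17 of 20 were past the threshold, where 3.33% of all genes were past it downwards. Under the label luminal 3 were, Mcm5, Mcm6 and Pola1, where 1.59% of all genes were past it downwards. Mcm5, a subunit of the replicative helicase, went from 21.2 to 2.62 FPKM in the libraries labelled basal and from 31.1 to 13.996 FPKM in those labelled luminal. Rrm2, a subunit of ribonucleotide reductase, went from 26.6 to 4.48 FPKM and from 31.96 to 21.01 FPKM. Cdt1, a licensing factor, was closest to its DMSO level in the list, with ratios of 0.695 and 0.870. The dividing-cell markers were lower in the same libraries, and their part in these changes was not tested.

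Few factors that remove G1 cyclins or p27, or that control the inhibitors, were past the threshold. Few of all genes were, at the shares given above. Of 9 ubiquitin ligase genes for G1 cyclins and p27, only Cks1b under the label basal was past it, going from 56.0 to 23.1 FPKM. Its ratio was 0.412 (0.371 to 0.457). Skp2, the subunit that recognises p27, was at 0.351 times (0.266 to 0.458) its DMSO level for basal and 0.568 times (0.454 to 0.708) for luminal. The basal levels of Skp2 were 1.36 and 0.476 FPKM, so the added 1 FPKM held its change to -0.67. None of 12 Polycomb genes, which are known to repress the INK4 locus, was past the threshold. Of them 8 were higher for basal and 8 lower for luminal, with medians of 0.28 and -0.16. Ezh2 was lower under both labels, with ratios of 0.557 and 0.737, and Ezh1 higher, with ratios of 1.82 and 1.12. None of 8 FOXO factors and growth factor kinases was past it, with medians of 0.04 and 0.01. In the ARF and p53 branch, Mdm2, a p53 target and ligase for p53, was at 27.003 FPKM in basal DMSO and 67.6 FPKM in basal baicalin, the 1 gene of 4 past the threshold, and at 20.5 and 33.0 FPKM in luminal DMSO and luminal baicalin.

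**Figure D5:**
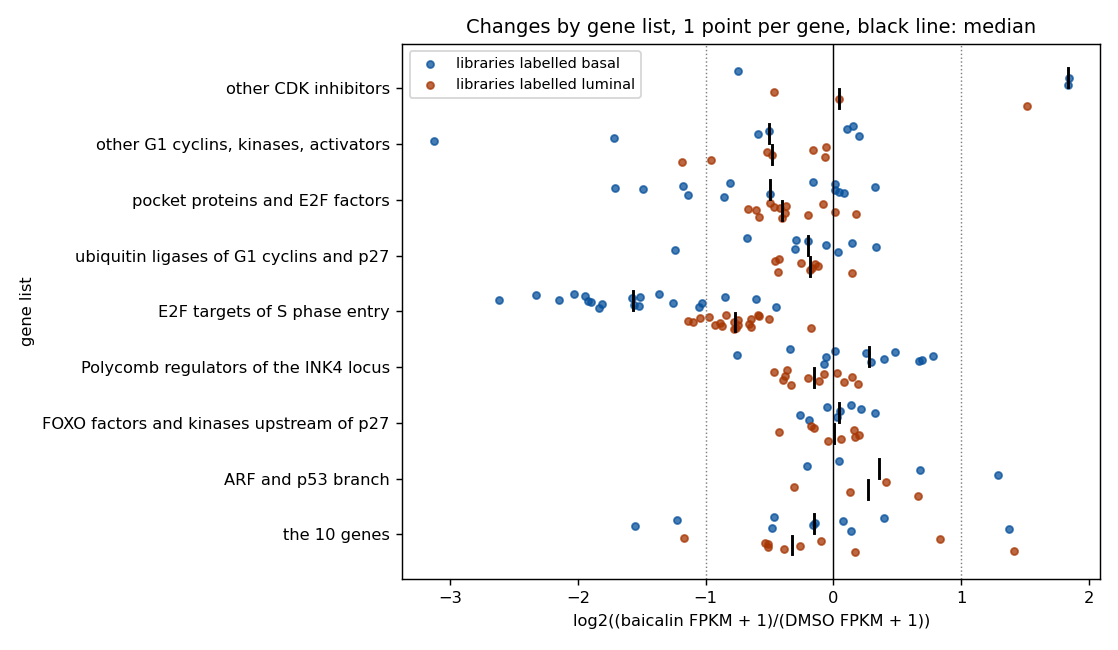
Change with baicalin for each gene of 8 pathway lists and of the 10 genes, with 1 point per gene, blue for the label basal, brown for the label luminal, black lines for medians and dotted lines at the threshold of 1 in each direction. The E2F targets lie to the left of 0 in both colours, with medians of -1.57 and -0.77, while the 10 genes spread to both sides.

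The genes whose pattern over the 4 libraries was most like that of a member were found for the 3 members with the widest range, by Euclidean distance between log2(FPKM + 1) values centred on each gene's mean, among 8571 protein-coding genes with at least 5 FPKM in a library. Those nearest to Ccnd2, whose range was 4.91 on this scale, were Gpx2 at a distance of 0.875, Adh7 at 0.886 and Igfbp6 at 1.01. Gpx2, a glutathione peroxidase gene, was at 9.41, 11.9, 65.9 and 149.3 FPKM in basal DMSO, basal baicalin, luminal DMSO and luminal baicalin. For Ccne1, with a range of 1.55, the nearest were Zwilch (0.102), Chaf1a (0.127) and Mastl (0.138), and Chaf1a, a chromatin assembly factor, belongs to the E2F target list above. For Cdkn2c, with a range of 1.42, they were Wwp2 (0.145), Mnd1 (0.151) and Acat1 (0.194). With 4 points each, likeness is a description only.

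Several members share exon bases with a gene on the opposite strand. The libraries were made with a stranded kit, which keeps the strand of each read, but whether the counting used it is not given in the sources used here, so the division of reads within such a pair is uncertain. Ccnd1 shares 1100 of its 4709 exon bases with Oraov1 (2.005 to 2.70 FPKM), Cdk4 shares 641 of 3249 with Tspan31 (34.3 to 38.02 FPKM) and Ccnd3 shares 361 of 8775 with Bysl (4.96 to 8.21 FPKM). Ccnd2 shares 368 and 372 of 9409 exon bases with 9330179D12Rik and Gm43126, which were at 0.228 FPKM or less, and Cdk6 shares 368 of 13989 with Gm17590, at 0 in all libraries. Same-strand copies, aligned at 95% identity or more across 200 bases or more, were Ccnd3-ps for Ccnd3, with 0.112 FPKM in basal baicalin and 0 elsewhere, and Gm16505 for Cdk6, at 0 throughout. Both copies lay far below their members. Among the opposite-strand genes, Bysl lay above Ccnd3 in basal DMSO, basal baicalin and luminal baicalin, and Tspan31 lay below Cdk4 in every library.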

How the data were processed

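RNA was measured in 4 libraries, 1 per condition. Per the study's methods, the authors aligned reads with HISAT2 to GRCm38, counted fragments on Ensembl release 94 with featureCounts and deposited FPKM. The submitters' processing notes list Bowtie 0.12.2 and the builds mm8 and GRCm38 without their role. mRNA was selected by oligo(dT), so transcripts without poly(A) tails are under-represented. Exon lengths from GENCODE mouse release 21 existed for 54409 of 54446 genes. FPKM times exon length gave whole fragments, within 0.05, for 98.7% to 98.8% of low genes, and the fragments gave exact Clopper-Pearson intervals on ratios between libraries and normal intervals on the log scale for ratios of ratios and of levels. No test was made between conditions, and no count model was used. Changes were log2((FPKM + 1)/(FPKM + 1)), read against genes above 0 in all 4 libraries with a threshold of 1. From the 76 genes of the 8 lists, those past the threshold, up to 3 further genes with large changes and genes of known pathway role were named. The members and lists were chosen with earlier results of these data known. Alternatives were pseudocounts of 0.1 or none, TPM, centring on the median, a threshold of 2, other filters, the INK4 sum without Cdkn2a or, added after seeing the data, with Cdkn2d, and list genes of at least 5 FPKM. Promoter sequences were RefSeq's, on GRCm38.p6. The computation was tested on simulated data. Computations ran in Python 3.11.15 with scipy 1.17.1, pandas 2.3.3 and numpy 2.4.6, and plots in matplotlib 3.10.9. Libraries of other treatments were not analysed here.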

Additional observations from a re-analysis of the deposited data

Results flagged for a closer look

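Cdkn1b was the 1 member whose level moved in opposite directions with baicalin under the labels, with a change of 0.08 under the label basal and -0.54 under the label luminal, so that the luminal change minus the basal change was -0.61 on the log2 scale. The difference was not tested, since each condition had 1 library, and the basal ratio of 1.06 was within counting error of 1.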

How the results depend on the processing

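No paired analysis was possible because each condition had 1 library and no test was made. With a threshold of 2 in place of 1, the count of members past it was 0 for baicalin against DMSO under both labels and 1, Ccnd2, between the labels in baicalin. The 0 under the label basal was with 1 FPKM added. There the change of Ccnd2 was 1.38, against 2.03 with 0.1 FPKM added and 2.15 with none. With a pseudocount of 0.1 FPKM or with none, 2 members in place of 1 were past the threshold between the labels in DMSO, Cdkn2c joining Ccnd2. With a pseudocount of 0.1 FPKM, 11 listed genes in place of 5, and 8 E2F targets in place of 3, were past it under the label luminal. Without Cdkn2a the INK4 sum relative to Cdk4 and Cdk6 was 0.437 in basal DMSO, 0.597 in basal baicalin, 0.324 in luminal DMSO and 0.488 in luminal baicalin. With Cdkn2d added, an alternative chosen after seeing the data, it was 0.590 and 0.673 in basal DMSO and basal baicalin and 0.492 and 0.641 in luminal DMSO and luminal baicalin, and the luminal ratio of baicalin to DMSO of the sum was 1.06 in place of 1.199. Scaled to TPM, the change of Cdk4 between the labels in baicalin turned from 0.06 to -0.011, a ratio within counting error of 1. Of the 40 member changes, 1 changed sign under TPM and none under the other pseudocounts or centring. Without a change of sign, 9 moved by more than counting error under TPM and 4 under each other pseudocount. Ccnd2 under the label basal was among them each time. Without a filter on low values, 1.57% to 3.10% of all genes were past the threshold, counted in both directions, against 3.95% to 8.56% with it. Among genes with at least 1 FPKM in a library, the share for baicalin under the label luminal was 6.18% in place of 3.95%. The other counts of members and of listed genes stayed within 1.5 times the values given. With 1 library per condition, the spread between cultures is unknown, and Cdkn2a, with 47 to 139 fragments, has the widest counting intervals of the 10 members.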
